A study of Nannochloropsis oceanica with 18 samples.

Results

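Glycine decarboxylase (GDC, also called the glycine cleavage system) was followed through 4 genes, g176, g260, g1059 and g9801, of the 9756 genes in the deposited expression tables. They are the genes that the study names as the 4 subunits of the complex, and the rule that picks them uses names and no measured value. The annotation in the tables supports a subunit for 3 of the 4 genes, as set out below.

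GDC is a mitochondrial complex of 4 kinds of protein. The P protein decarboxylates glycine and releases CO2, the H protein carries the remaining aminomethyl group on its lipoyl arm, the T protein passes the one-carbon unit to tetrahydrofolate (THF) with release of ammonia, and the L protein, a dihydrolipoamide dehydrogenase, reoxidises the arm. In photosynthetic cells the reaction is best known as the step of photorespiration at which fixed carbon leaves as CO2, and serine hydroxymethyltransferase (SHMT) then joins the one-carbon unit to a further glycine to make serine.

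The cells were the marine microalga Nannochloropsis oceanica, strain IMET1, grown in continuous light. All cultures, including those behind the control groups, came from cells grown at 5% CO2, were washed, put into fresh medium and kept at 5% CO2 for 1 h of preadaption before the 0 h samples were taken. They were then aerated with 5% CO2 (high carbon, HC) or with 0.01% CO2 (very low carbon, VLC) and sampled after 3, 6, 12 and 24 h. Poly(A) RNA of 2 biological replicates was sequenced in each of the 9 groups, which gave 18 libraries. The study kept 3 cultures per condition. Which culture gave each library is not given in the sources used here, and libraries of different times may share a culture.

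Expression was given as FPKM (fragments mapped to a gene per kilobase of its transcript and per fixed number of mapped fragments). FPKM can be compared between genes of a library, and between libraries only as shares, and keeps no read count. Each library's FPKM is a share of its own mRNA, so a change in mRNA per cell cannot be seen. The median gene per library lay between 17.5 FPKM (HC at 12 h) and 28.1 FPKM (VLC at 12 h). The median gene tested was therefore 0.58 higher on the log2 scale in VLC than in HC at 12 h, and between -0.06 and 0.09 at the other times. Differences that involve 12 h are therefore given as measured and also after centring, that is, with the difference of the median gene subtracted. Replicates of HC at 3 h lay furthest apart, with a median difference between them of 0.23 on the log2 scale against 0.06 to 0.12 in the other groups.

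The T protein gene g176 is annotated as a mitochondrial T protein and lies on scaffold00007 from position 449981 to 451885 of the IMET1 assembly used by the authors. The H protein gene g260 lies on the same scaffold, from 703638 to 704742, and is annotated as an H protein of the glycine cleavage system. Of the remaining genes, g1059 (scaffold00026, 196629 to 198303) stands in the study's list in the place of the L protein. Its annotation is glycine dehydrogenase (decarboxylating), which is the name of the P protein enzyme, and the study's protein table also annotates it as glycine dehydrogenase. Gene g9801 (scaffold00341, 253821 to 254907) stands in the place of the P protein but is annotated as a putative isoprenylcysteine carboxyl methyltransferase, an enzyme that methylates prenylated proteins in other eukaryotes. The tables hold no sequence with which to decide between these names. The 2 genes are therefore called by their identifiers here, and g9801 is not counted among the annotated subunits. The libraries do not keep strand, and 0 other genes overlapped the 4 loci.

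At 0 h, g260 and g1059 were among the highly expressed genes, above 95.6% and 95.01% of all genes in mean FPKM. The T protein gene g176 was above 82.2% of genes and g9801 above 41.2%. Transcripts of g260 and g1059 thus stood several fold above those of g176 and more than 10-fold above those of g9801 in the same libraries, per kilobase.

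In the T protein gene g176, which hands the one-carbon unit to THF, the replicates at 0 h were 68.3 and 67.4 FPKM. Under VLC they were 112 and 123 FPKM after 3 h, 142 and 192 after 6 h, 104 and 98.5 after 12 h, and 190.5 and 193 after 24 h. Under HC they were 70.4 and 96.1 FPKM after 3 h, 83.1 and 82.7 after 6 h, 39.9 and 39.8 after 12 h, and 131 and 141 after 24 h. At every time both VLC libraries lay above both HC libraries. Each arm dipped at 12 h, and the mean at 24 h was the highest of its arm. The highest group mean (VLC at 24 h, 192 ± 1.83 FPKM, SD, n = 2) was 4.81-fold that of the lowest (HC at 12 h, 39.9 ± 0.08).

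Ordered by their means, the 9 groups of g176 ran from VLC at 24 h through VLC at 6 h, HC at 24 h, VLC at 3 h, VLC at 12 h, HC at 3 h, HC at 6 h and 0 h down to HC at 12 h. Libraries of neighbouring groups overlapped for VLC at 24 h against VLC at 6 h and for HC at 3 h against HC at 6 h. The order was made from the same means, so overlap is given only as a description.

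The H protein gene g260, the mobile carrier of the complex, had 270.1 and 265 FPKM at 0 h. Under VLC its replicates were 346 and 337 FPKM after 3 h, 241 and 276 after 6 h, 204 and 218 after 12 h, and 276 and 305 after 24 h. Under HC they were 287 and 278 FPKM after 3 h, 203 in both libraries after 6 h, 83.0 and 107 after 12 h, and 308 and 305 after 24 h. The VLC libraries lay above the HC libraries at 3, 6 and 12 h, and by 24 h the arms overlapped. The lowest group, HC at 12 h (95.2 ± 17.2 FPKM), stood 3.59-fold below the highest, VLC at 3 h (341 ± 6.03 FPKM). Between the highest and the lowest came HC at 24 h, VLC at 24 h, HC at 3 h, 0 h, VLC at 6 h, VLC at 12 h and HC at 6 h. Libraries overlapped between HC and VLC at 24 h and between VLC at 24 h and HC at 3 h. Those of 0 h and VLC at 6 h also overlapped.

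For g1059, the replicates were 219 and 245 FPKM at 0 h. Under VLC they were 319.8 and 328 FPKM after 3 h, 266 and 309.5 after 6 h, 392 and 385 after 12 h, and 313 and 358 after 24 h. Under HC they were 321 and 284 FPKM after 3 h, 189 and 187 after 6 h, 181 and 191 after 12 h, and 262 and 266 after 24 h. The arms overlapped at 3 h and were apart at the later times. Unlike g176 and g260, this gene had its highest group mean under VLC at 12 h (388 ± 5.25 FPKM), 2.09-fold above its lowest, HC at 12 h (186 ± 7.54 FPKM). In its order VLC at 12 h was followed by VLC at 24 h, VLC at 3 h, HC at 3 h, VLC at 6 h, HC at 24 h, 0 h, HC at 6 h and HC at 12 h. Libraries of neighbouring groups among VLC at 24 h, VLC at 3 h, HC at 3 h and VLC at 6 h overlapped. So did those of HC at 6 h and HC at 12 h.

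Transcripts of g9801 were the rarest of the 4 in every group and had the smallest range. Its replicates were 16.9 and 17.9 FPKM at 0 h. Under VLC they were 12.6 and 17.9 FPKM after 3 h, 17.0 in both libraries after 6 h, 21.4 and 24.7 after 12 h, and 16.2 and 16.7 after 24 h. Under HC they were 20.9 and 20.6 FPKM after 3 h, 17.8 and 18.3 after 6 h, 15.6 and 14.2 after 12 h, and 14.1 and 16.02 after 24 h. The VLC libraries were below the HC libraries at 3 and 6 h and above them at 12 and 24 h. The order of its groups ran from VLC at 12 h (23.0 ± 2.31 FPKM) to HC at 12 h (14.9 ± 0.985 FPKM). VLC at 12 h and then HC at 3 h stood apart at the top, HC at 6 h, 0 h and VLC at 6 h came next with overlap from one to the next, and VLC at 24 h, VLC at 3 h, HC at 24 h and HC at 12 h formed an overlapping lower run.

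**Figure D1:**
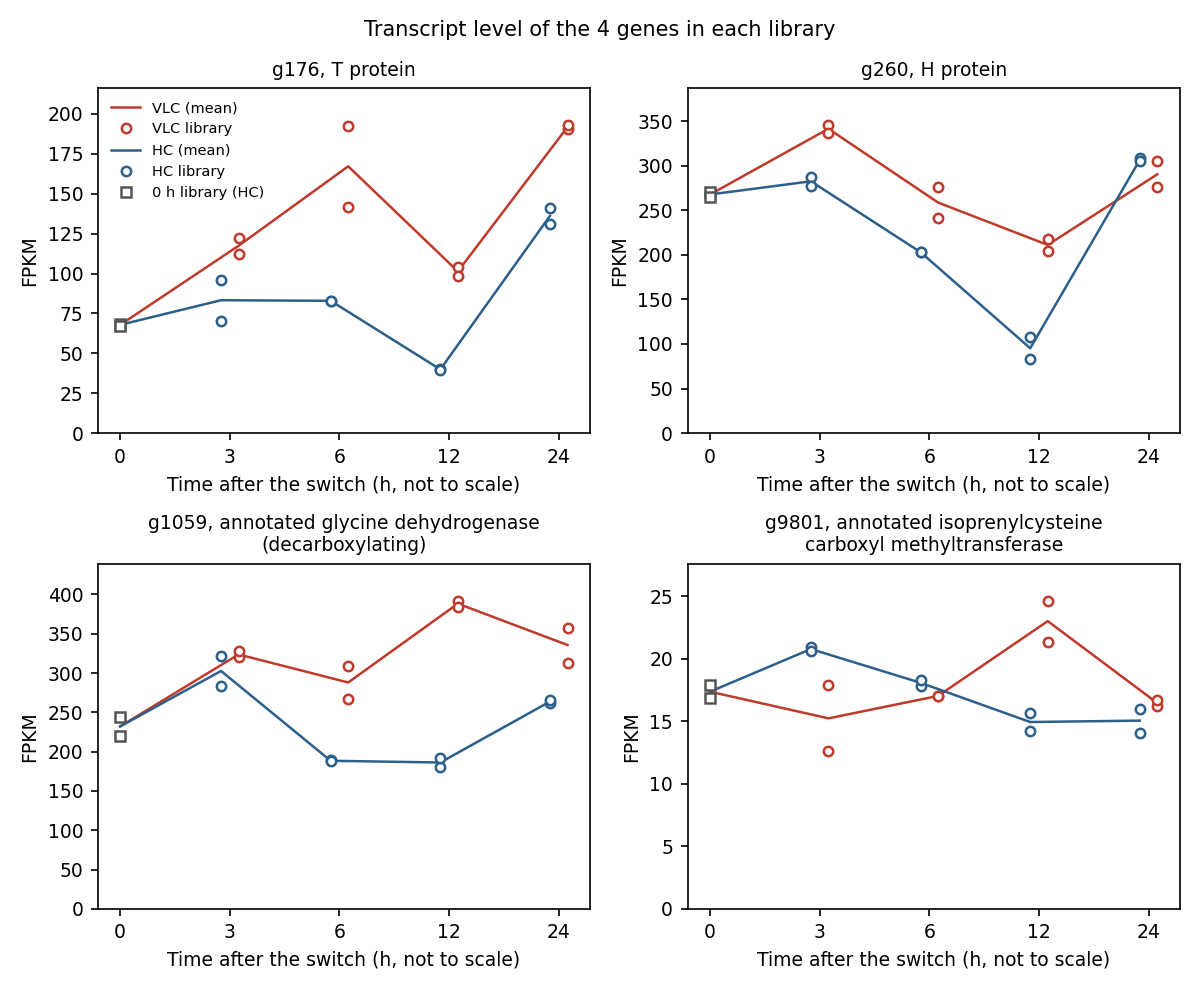
FPKM of the 4 genes (one panel each, linear axis from 0) against time in hours, with open circles for single libraries, squares for the 0 h libraries and lines through the means of the 2 libraries of VLC (red) or HC (blue). In g176 the VLC libraries lie above the HC libraries at all 4 times, in g260 HC at 12 h is the low point (83.0 and 107 FPKM), and g1059 is highest under VLC at 12 h (392 and 385 FPKM).

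Across the 9 groups, the ratio of the highest to the lowest group mean was 4.81 for g176, 3.59 for g260, 2.09 for g1059 and 1.54 for g9801. Among 9265 genes with a mean of at least 10 FPKM in any group the median of this ratio was 4.53. A smaller ratio than that of g176 was found in 53.5% of these genes, than that of g260 in 36.0%, than that of g1059 in 8.45% and than that of g9801 in 1.27%. The 4 genes thus ran from the middle of all genes to the least variable ones. The spread between replicates, pooled over the 9 groups, was 0.15, 0.11, 0.09 and 0.13 on the log2 scale in the same order, against 0.12 for the median gene.

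VLC was compared with HC at each time to ask how the subunit transcripts respond to the CO2 supply apart from the passage of time. The values are differences of log2(FPKM + 1), tested with limma on all 18 libraries. A gene was called where the Benjamini-Hochberg adjusted p was at most 0.05 and the change at least 2-fold. Counts by the unadjusted limma p are given without the share of all genes under 0.05. That share is at least the share at an adjusted p of at most 0.05, so these counts are not read as a response.

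At 3 h, 0 of the 4 genes were called, against 0.701% of all genes tested that were called higher and 0.268% lower. By the unadjusted limma p, 3 of the 4 were under 0.05. At any size, 1 of the 4 passed in each direction, as did 7.39% of all genes higher and 7.46% lower. The largest difference was that of g176, 0.51 ± 0.14 (SE) higher in VLC with an adjusted p of 0.026. Gene g9801 was lower in VLC by 0.44 ± 0.13 (adjusted p = 0.035). Both differences lost the test when the model held only the libraries of 3 h (adjusted p = 0.36 and 0.42). The difference of g176 was 0.28 without replicate 1 of HC at 3 h and 0.73 without replicate 2. Neither g260 (0.27, adjusted p = 0.082) nor g1059 (0.10, adjusted p = 0.46) passed the test.

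At 6 h the transcripts of g176 stood 0.99 ± 0.14 higher in VLC than in HC (adjusted p = 2.0e-04, 95% interval 0.70 to 1.28), just short of 2-fold, and g1059 stood 0.61 ± 0.09 higher (adjusted p = 3.5e-04). The H protein gene g260 was 0.34 ± 0.10 higher (adjusted p = 0.038) and g9801 was at -0.08 (adjusted p = 0.74). As measured 0 of the 4 genes were called, against 1.84% of all genes called higher and 0.252% lower, and 3 of 4 had an unadjusted limma p under 0.05. An adjusted p of at most 0.05 at any size, higher in VLC, was reached by 3 of the 4 and by 7.89% of all genes, and a lower level by 0 of the 4 and by 4.39%. After centring g176 was at 1.04 and was called (adjusted p = 1.1e-04), as 1 of the 4 and 2.05% of all genes. The replicates of g176 in VLC at 6 h differed 1.36-fold. Without replicate 1 of VLC at 6 h the difference was 1.21 and was called, and without replicate 2 it was 0.77.

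At 12 h all of the 3 annotated subunit genes were called higher in VLC as measured. The difference was 1.32 ± 0.14 for g176 (adjusted p = 6.3e-07), 1.15 ± 0.10 for g260 (adjusted p = 1.3e-07) and 1.06 ± 0.09 for g1059 (adjusted p = 8.9e-08). The value of g9801 was 0.59 ± 0.13 (adjusted p = 7.7e-04), which passed the test but was under 2-fold. Thus 3 of the 4 genes were called higher, where 27.6% of all genes tested were called higher and 4.36% lower. At any size 4 of 4 passed upwards, as did 65.7% of all genes, against 14.3% downwards. After centring the differences were 0.74, 0.57, 0.47 and 0.00, and 0 of the 4 were called, against 8.85% of all genes called higher. Of the 4, 3 then still had an adjusted p of at most 0.05 (2.5e-04 for g176, 1.8e-04 for g260 and 3.1e-04 for g1059), as had 33.9% of all genes in the same direction, and the same 3 had an unadjusted limma p under 0.05. Without replicate 1 of HC at 12 h the difference of g260 was 0.97, below 2-fold. The 3 subunit genes came to these differences along different courses. From 6 h to 12 h the mean of g176 went from 167 to 101.3 FPKM under VLC and from 82.9 to 39.9 FPKM under HC. That of g260 went from 259 to 211 FPKM under VLC and from 203 to 95.2 FPKM under HC. In g1059 the VLC mean rose from 288 to 388 FPKM, while the HC mean was 188 FPKM and then 186 FPKM.

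By 24 h the differences were smaller. The T protein gene was 0.49 ± 0.14 higher in VLC (adjusted p = 0.0056) and g1059 was 0.34 ± 0.09 higher (adjusted p = 0.0038), while g260 was at -0.08 (95% interval -0.30 to 0.14) and g9801 at 0.12 (-0.15 to 0.40). As measured 0 of the 4 were called, where 11.2% of all genes were called higher and 5.95% lower, and 2 of 4 had an unadjusted limma p under 0.05. An adjusted p of at most 0.05 with a higher level in VLC was found for 2 of the 4 and for 36.2% of all genes, and with a lower level for 0 of the 4 and for 28.4%.

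Without any test, both VLC libraries of a gene lay above both HC libraries in 2 of the 4 genes at 3 h (21.9% of all genes), in 3 at 6 h (25.4%), in 4 at 12 h (72.9%) and in 3 at 24 h (50.7%). Both lay below in g9801 at 3 h and at 6 h, 1 of the 4 (25.5% and 44.2% of all genes), and in 0 of the 4 at 12 h and 24 h (18.9% and 38.8%). Among the 4 genes, only the T protein gene g176 had VLC above HC without overlap at each of the 4 times. This was not particular to it: g3370 and g10166, described below, had it too. The share of all genes above at all 4 times is not given here.

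The change of the VLC against HC difference from one time to another was tested as an interaction, and counted where the adjusted p was at most 0.05 both as measured and after centring. Between 3 h and the later times 1 of the 4 genes rose each time: g1059 to 6 h (2.49% of all genes) and to 12 h (25.5%), and g9801 to 24 h (23.7%). From 6 h to 12 h 0 of the 4 changed by this rule, where 23.4% of all genes rose and 10.3% fell, and 3 of the 4 had an unadjusted limma p under 0.05 as measured. From 6 h to 24 h 2 of the 4 fell, g176 and g260 (19.7%), and from 12 h to 24 h 1 of the 4 fell, g260 (24.3%).

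**Figure D2:**
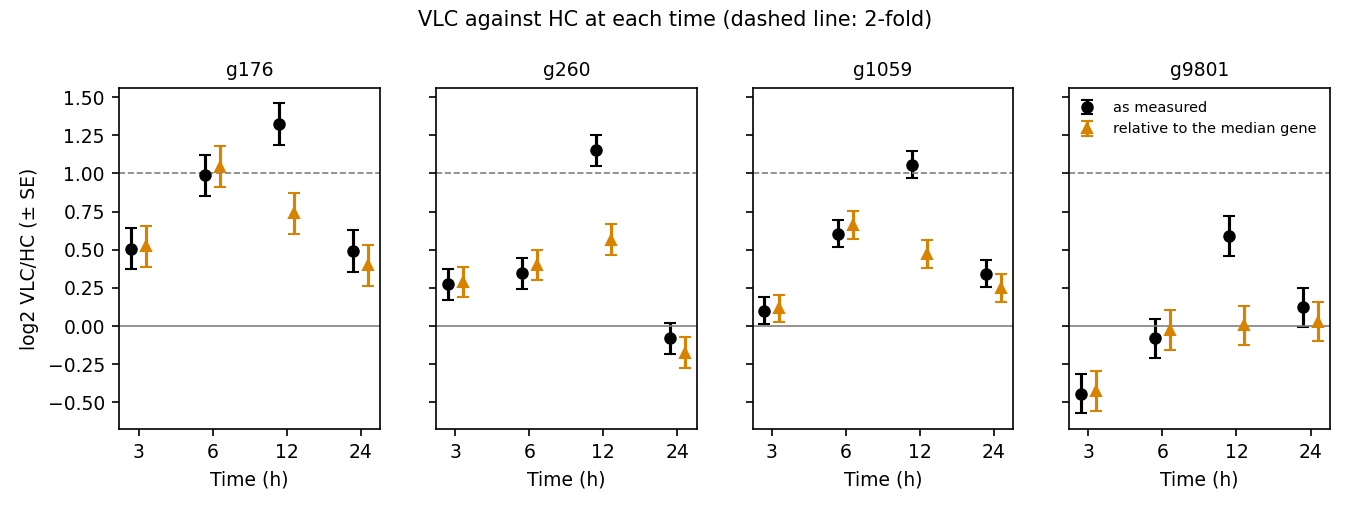
Difference between VLC and HC in log2(FPKM + 1) at 3, 6, 12 and 24 h for the 4 genes, with bars of 1 SE, as measured (black circles) and after centring (orange triangles); the dashed line is 2-fold. At 12 h the values of g176, g260 and g1059 pass the line as measured (1.32, 1.15 and 1.06) and lie below it after centring (0.74, 0.57 and 0.47), and g9801 comes to 0.00.

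Both arms were also set against the shared 0 h samples. Under VLC g176 rose most: it was 0.78 ± 0.14 above 0 h at 3 h, 1.27 ± 0.14 at 6 h, 0.57 ± 0.14 at 12 h and 1.49 ± 0.14 at 24 h, with adjusted p from 1.5e-07 to 0.0013. It was called at 6 h and at 24 h, as measured and also after centring (1.21 and 1.40), and its value at 12 h was 0.43 after centring (adjusted p = 0.0095). That was 1 of the 4 genes at each of these times, where as measured 21.1% and 20.8% of all genes were called higher and 16.5% and 14.8% lower, and after centring 19.9% and 19.1% higher. At 3 h and 12 h 0 of the 4 genes were called, against 9.95% and 28.8% of all genes called higher and 4.87% and 15.6% lower, and by the unadjusted limma p 3 and 4 of the 4 were under 0.05.

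The P protein-annotated gene g1059 was above 0 h under VLC at every time, by 0.48 at 3 h, 0.31 at 6 h, 0.74 at 12 h and 0.53 at 24 h (SE 0.09, adjusted p from 2.3e-06 to 0.0056), without reaching 2-fold, and its value at 12 h was 0.60 after centring (adjusted p = 2.1e-05). The H protein gene g260 was 0.35 above 0 h at 3 h (adjusted p = 0.0075) and 0.34 below it at 12 h (adjusted p = 0.0060, -0.49 after centring with adjusted p = 4.2e-04), and at 6 h and 24 h its values of -0.05 and 0.12 did not pass the test (adjusted p = 0.64 and 0.30). Gene g9801 was 0.38 above 0 h at 12 h as measured (adjusted p = 0.013), but 0.24 after centring, which did not pass (adjusted p = 0.10), and its other VLC values, between -0.20 and -0.03, did not pass.

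Under HC, at the CO2 supply of the 0 h samples, g260 fell by 0.40 at 6 h (adjusted p = 0.0023) and by 1.49 at 12 h (adjusted p = 2.7e-09), and at 24 h its value of 0.19 did not pass (adjusted p = 0.095). The fall at 12 h was the 1 call lower among the 4 genes at that time, where 36.4% of all genes were called lower and 22.4% higher. After centring it was -0.97 (adjusted p = 3.9e-07), short of 2-fold, with 0 of 4 called and 21.4% of all genes called lower. In g176 the value at 12 h was -0.75 (adjusted p = 1.1e-04) and after centring -0.23, which did not pass (adjusted p = 0.13). For g1059 the value at 12 h changed sign with the scale, from -0.31 as measured (adjusted p = 0.0040) to 0.21 after centring (adjusted p = 0.0405). So did that of g9801, from -0.21 (adjusted p = 0.145) to 0.32 (adjusted p = 0.032).

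At 24 h of HC g176 stood 0.99 ± 0.14 above 0 h (adjusted p = 1.4e-05), just under 2-fold. Without replicate 1 at 0 h or without replicate 1 of HC at 24 h the value was 1.00 or 1.05 and was called. At 3, 6 and 24 h of HC 0 of the 4 genes were called, against 8.18%, 20.5% and 14.0% of all genes called higher and 3.71%, 15.7% and 11.3% lower, and 1, 2 and 1 of the 4 had an unadjusted limma p under 0.05.

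Earlier in HC, g1059 was 0.38 above 0 h at 3 h (adjusted p = 0.0021) and 0.30 below it by 6 h (adjusted p = 0.0070), a step of -0.68 ± 0.09 between these times (adjusted p = 1.5e-05).

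From one time to the next, the steps of the 4 genes past 2-fold were all in HC. Between 6 h and 12 h of HC g176 fell by 1.04 (adjusted p = 4.8e-06) and g260 fell by 1.10 (adjusted p = 1.0e-07), 2 of the 4 genes where 36.9% of all genes were called lower. After centring they were -0.37 and -0.43, with 0 of 4 called and 12.9% of all genes called lower, and 4 of 4 had an unadjusted limma p under 0.05. Between 12 h and 24 h of HC g176 rose by 1.74 ± 0.14 and g260 by 1.69 ± 0.10 (adjusted p = 1.3e-08 and 6.8e-10). Both were also called after centring (1.07 and 1.02), as 2 of the 4 genes on either scale, where 40.7% of all genes were called higher as measured and 20.0% after centring. Under VLC g176 moved by 0.49 from 3 to 6 h, -0.70 from 6 to 12 h and 0.91 from 12 to 24 h (adjusted p from 2.4e-05 to 0.0056). As measured, its steps to and from 12 h had the directions of those in HC and were smaller. After centring they were -0.78 and 0.79, so the step to 12 h was then larger than in HC and the step from 12 h smaller. In g1059 the step from 6 to 12 h of VLC went the other way, 0.43 ± 0.09 upwards (adjusted p = 5.1e-04, 0.35 after centring).

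The subunits did not keep a fixed ratio of transcripts. A ratio of 2 genes within a library does not depend on the scaling of that library, so it is free of the shift of the median gene. For g260 over g176 the ratio of FPKM was 3.96 and 3.94 at 0 h. Under VLC it was 3.08 and 2.75 after 3 h, 1.70 and 1.43 after 6 h, 1.96 and 2.21 after 12 h, and 1.45 and 1.58 after 24 h. Under HC it was 4.08 and 2.89 after 3 h, 2.45 in both libraries after 6 h, 2.08 and 2.69 after 12 h, and 2.35 and 2.16 after 24 h. In all 16 later libraries but 1 the T protein transcript was thus closer in level to the H protein transcript than at 0 h. The VLC libraries were below the HC libraries at 6 h and 24 h without overlap.

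For g1059 over g176 the ratio was 3.21 and 3.63 at 0 h. Under VLC it was 2.85 and 2.67 after 3 h, 1.88 and 1.61 after 6 h, 3.76 and 3.90 after 12 h, and 1.64 and 1.85 after 24 h. Under HC it was 4.56 and 2.95 after 3 h, 2.28 and 2.27 after 6 h, 4.53 and 4.81 after 12 h, and 2.00 and 1.88 after 24 h. Both arms were low at 6 h and 24 h and high at 12 h, and the VLC libraries were below the HC libraries at each of the 4 times. For g1059 over g260 the ratio was between 0.81 and 1.17 in every library other than those of 12 h, where it was 1.92 and 1.77 under VLC and 2.18 and 1.78 under HC. At 12 h the glycine dehydrogenase transcript thus stood higher against that of the H protein, in both arms, than in any other library.

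These ratios were compared between VLC and HC over all 4 times with an exact two-sided permutation test that exchanged the labels within each time (6 pairs of genes, 1296 arrangements, smallest possible p = 0.0015). Averaged over the times, g176 was 1.33-fold higher against g260 in VLC than in HC (exact p = 0.0093, adjusted over the 6 pairs 0.014) and 1.24-fold higher against g1059 (exact p = 0.0015, adjusted 0.0031, the smallest p possible, higher without overlap at 4 of 4 times). Against g9801 it was 1.73-fold higher (exact p = 0.0015, adjusted 0.0031, 4 of 4 times). The ratio of g260 to g1059 was 1.07-fold lower in VLC, which did not pass the test (exact p = 0.23): VLC was above HC at 3 h and below it at 6 h and 24 h. Against g9801, g1059 was 1.39-fold higher in VLC (exact p = 0.0015, adjusted 0.0031, 4 of 4 times) and g260 1.30-fold higher (exact p = 0.023, adjusted 0.028), the latter at 3, 6 and 12 h and lower at 24 h. Without the libraries of 12 h the difference of g260 against g9801 no longer passed (adjusted p = 0.11). Libraries that share a culture across times are not independent, which this test does not take into account. The share of other gene pairs that would pass is not given here, so these results are not read as particular to these genes.

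**Figure D3:**
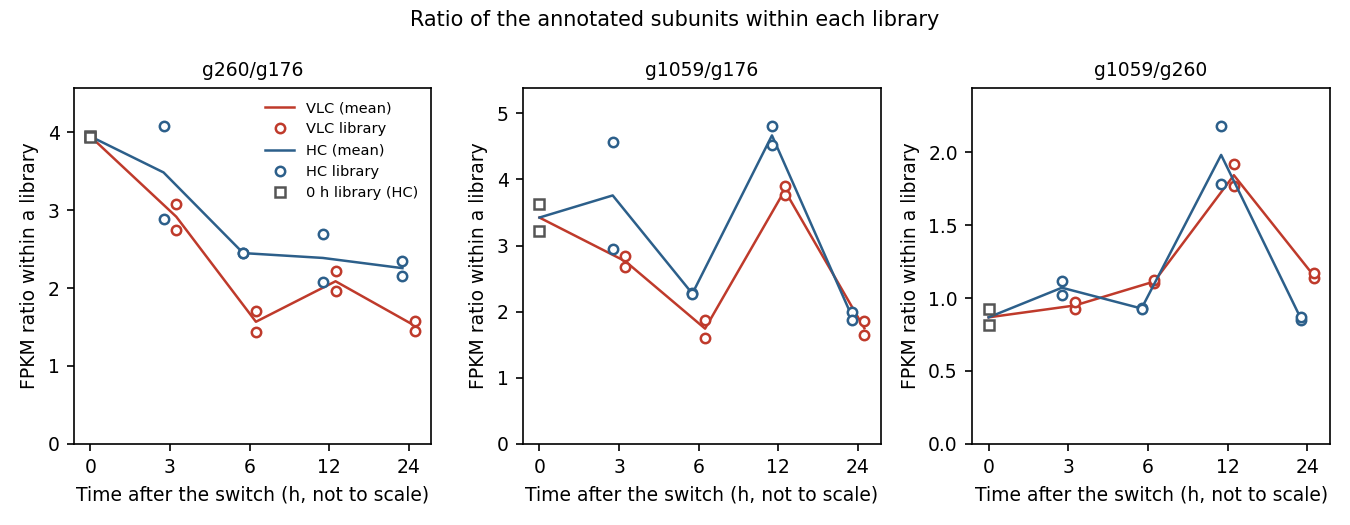
Ratio of FPKM between 2 genes within each library, for g260 over g176, g1059 over g176 and g1059 over g260, against time in hours, with open circles for single libraries and lines through the means of VLC (red) and HC (blue). In the middle panel the VLC libraries lie below the HC libraries at each of the 4 later times, and in the right panel both arms rise at 12 h to between 1.77 and 2.18.

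Over the 9 group means, log2 levels of g176 and g260 had a Pearson r of 0.74 (Spearman rho = 0.53), g176 and g1059 one of 0.65 (rho = 0.58) and g260 and g1059 one of 0.60 (rho = 0.48). These values share the 9 groups and the low level of most genes in HC at 12 h. After centring r was 0.62, 0.40 and 0.31, and without the 12 h groups, over 7 group means, it was 0.34, 0.61 and 0.81. The value for g176 and g260 was thus lower without 12 h, and that for g260 and g1059 higher. Gene g9801 had r of -0.02 with g176, 0.06 with g260 and 0.42 with g1059 as measured, and of -0.80, -0.62 and -0.16 after centring. With each of the other 3 genes r of g9801 was lower after centring than as measured.

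Set beside all genes, the likeness among the subunits was moderate. Over the 18 libraries g176 and g260 had r = 0.73, and 12.0% of the other expressed genes were at least as similar to g176 and 24.8% at least as similar to g260. For g176 and g1059 r was 0.64, reached by 21.5% of genes with g176 and by 6.46% with g1059. For g260 and g1059 r was 0.59, reached by 36.4% of genes with g260 and by 10.1% with g1059. The differences between the 2 replicates of a group, 9 for each gene, had r of -0.11 between g176 and g260, -0.16 between g176 and g1059 and 0.46 between g260 and g1059.

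The gene most like g1059 among all 9264 others was g1924, an SHMT. The study describes the other SHMT gene of its photorespiration list, g6217, as the one targeted to the mitochondrion, where GDC works. Over the 18 libraries r was 0.93 as measured, 0.89 after centring and 0.88 without the 12 h libraries. The replicates of g1924 were 118 and 119.7 FPKM at 0 h, 189 and 186 under VLC after 12 h, and 69.2 and 70.3 under HC after 12 h. Like g1059 it was at its highest under VLC at 12 and 24 h (186 and 189.9 FPKM at 24 h). Next in order as measured were g660, an alpha-galactosidase (r = 0.90), g9400, a possible ABC-like protein kinase (0.88), g6232 (0.88) and g1897, a probable RNA helicase (0.87). After centring g1924 and g660 were followed by g5795, a ferredoxin (0.77), g3390 and g3177.

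The genes most like g176 were the same 5 on either scale: g446, a putative N-methyltransferase of the Rubisco large subunit (r = 0.97 as measured and 0.96 after centring), g4845 and g4844, annotated as E3 ubiquitin-protein ligases (0.96 both as measured), g785, a C2H2 zinc finger protein (0.96), and g1060, which has no annotation (0.96). For g260 they were, as measured, g5848 (a protein of unknown function, r = 0.97), g10063 (no annotation, 0.97), g8371 (peroxisomal membrane protein-related, 0.97), g9520 (glutaredoxin 2, 0.97) and g5369 (redoxin, 0.97). After centring g5848 and g10063 were joined by g259, a ribose-5-phosphate isomerase (0.96), g5876 (no annotation, 0.96) and g4703, a glutamate synthase (0.95). For g9801 no gene was above 0.83. The nearest as measured were g9284 (0.83), g150 (0.81), g6364 (0.78), g3066 (0.77) and g4639 (0.77), and after centring g150 (0.82), g459, g7738, g9762 and g308 (0.75 to 0.76).

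On the scaffold, 2 of these similar genes were direct neighbours of a subunit gene. Gene g259 ended 384 bases before g260 and had r = 0.96 with it on either scale, and its difference between VLC and HC at 12 h was 1.96 (adjusted p = 3.7e-09, 1.38 after centring). Gene g1060 started 6 bases after g1059. It had r = 0.69 with g1059 and 0.96 with g176, a mean of 278 FPKM over the 18 libraries against 279 for g1059, and differences between VLC and HC of 0.40, 0.65, 1.15 and 0.31 at 3, 6, 12 and 24 h (adjusted p from 2.1e-07 to 0.025). With fragments of unstranded libraries, reads at the ends of genes this close may be counted for either, which was not tested. The other neighbours were less alike: g175 and g177 beside g176 had r of 0.69 and 0.31 with it, g262 after g260 had -0.69, g1058 before g1059 had 0.55, and g9800 and g9802 beside g9801 had -0.02 and -0.03.

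The annotation names further genes of the complex. A second T protein (aminomethyltransferase) is annotated at g3370 (scaffold00095, 149336 to 151020), and dihydrolipoamide dehydrogenase, the L protein enzyme, which the 2-oxo acid dehydrogenase complexes also use, at g163 (scaffold00007, 415229 to 417826) and g10137 (scaffold00354, 417234 to 419077). Both dihydrolipoamide dehydrogenase genes are described side by side with the members by a choice made after their values were seen.

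The second T protein gene g3370 rose up to 12 h in both arms and was lower again at 24 h. It had 13.3 and 13.2 FPKM at 0 h, 31.9 and 35.7 under VLC after 3 h, 34.8 and 40.6 after 6 h, 66.9 and 73.3 after 12 h and 43.9 and 48.3 after 24 h. Under HC it had 29.3 and 27.4 FPKM after 3 h, 30.8 and 30.6 after 6 h, 43.0 and 41.7 after 12 h and 34.6 and 34.3 after 24 h. At every later time both arms were above 0 h without overlap, by 1.04 to 2.32 on the log2 scale (adjusted p from 1.2e-11 to 3.5e-07). Its peak was at 12 h, the time at which g176 was low in both arms. The difference between VLC and HC was 0.71 ± 0.09 at 12 h as measured (adjusted p = 5.1e-06) and 0.13 after centring (adjusted p = 0.22), and 0.41 at 24 h (adjusted p = 0.0011). At 0 h g176 was thus far above g3370 (67.8 ± 0.647 against 13.2 ± 0.112 FPKM), and under HC at 12 h g3370 was slightly above g176 (42.4 ± 0.906 against 39.9 ± 0.08 FPKM).

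The 2 dihydrolipoamide dehydrogenase genes differed from each other. Gene g163 had 745 and 805 FPKM at 0 h and fell in both arms, to 257 and 250.4 under VLC and 198 and 243 under HC at 3 h, and to 100.1 and 89.2 under VLC and 16.2 and 23.8 under HC at 12 h. Its means at 6 h were 91.6 FPKM under VLC and 77.8 FPKM under HC. By 24 h it was at 214 and 235 under VLC and 258 and 263 under HC. The means at 24 h were 28.9% (VLC) and 33.6% (HC) of the mean at 0 h. At 12 h of HC it fell by 5.23 ± 0.14 on the log2 scale (adjusted p = 2.55e-13, or -4.71 after centring), and the difference between VLC and HC at 12 h was 2.21 ± 0.14 (adjusted p = 5.3e-09, 1.62 after centring). Gene g10137, in contrast, stayed between 83.6 and 137 FPKM in all 18 libraries. As measured its differences between VLC and HC were 0.24, 0.31, -0.15 and -0.15 at 3, 6, 12 and 24 h, with adjusted p of 0.069 or more. After centring it was higher in VLC at 6 h (0.37, adjusted p = 0.032) and lower at 12 h (-0.74, adjusted p = 2.3e-05), and its values at 3 h and 24 h (0.25 and -0.25) did not pass.

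**Figure D4:**
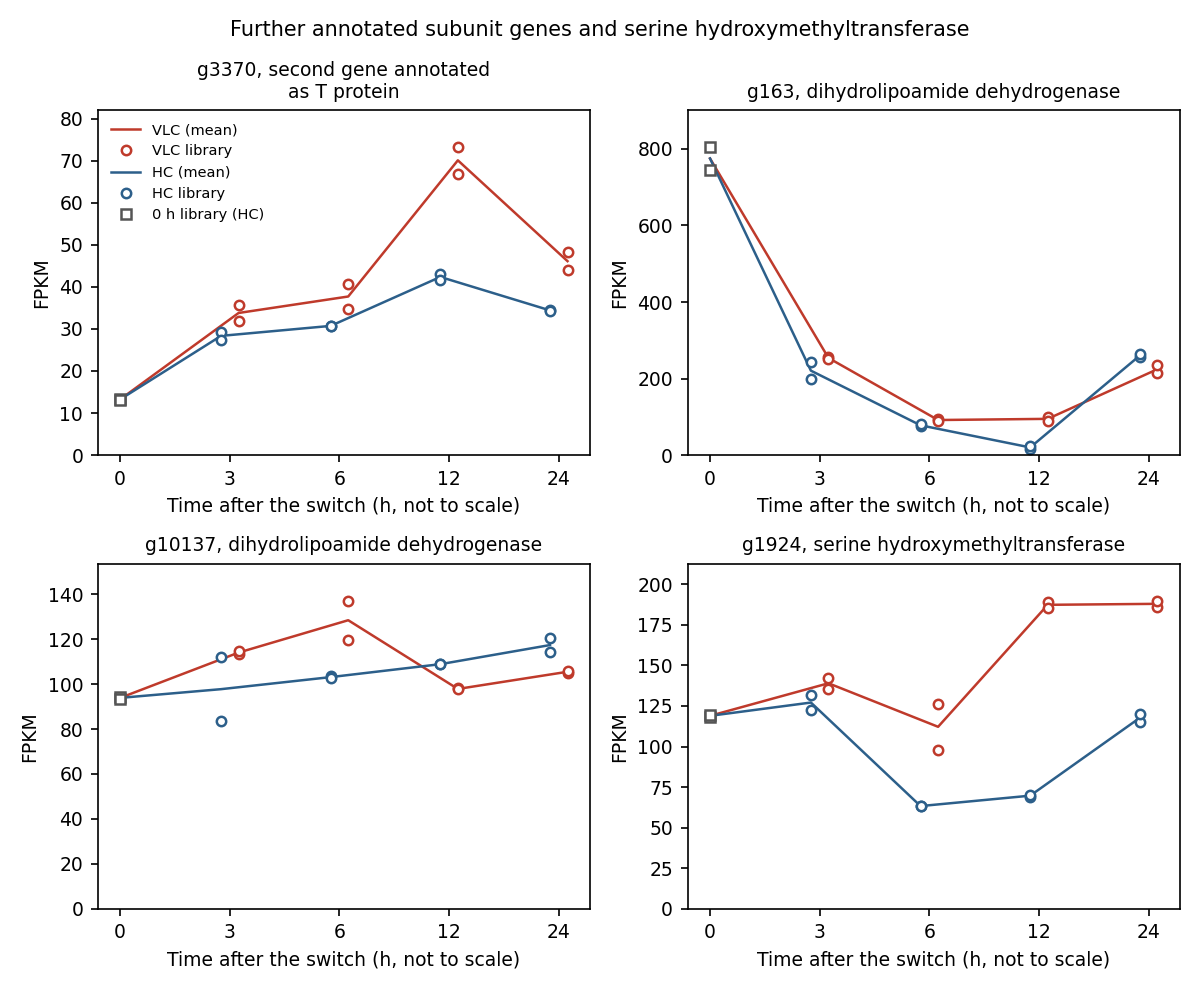
FPKM of g3370 (annotated T protein), g163 and g10137 (dihydrolipoamide dehydrogenases) and g1924 (SHMT) against time in hours, drawn as single libraries and group means of VLC (red) and HC (blue) with squares for 0 h. Gene g3370 peaks at 12 h, g163 drops from 745 and 805 FPKM at 0 h to 16.2 and 23.8 under HC at 12 h, and g10137 stays between 83.6 and 137 FPKM.

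The genes around GDC in photorespiration were taken from the study's own list of 7 genes. The study reports that serine:glyoxylate aminotransferase and hydroxypyruvate reductase are absent from this alga, so the list is not a complete route. The study chose this list on these samples, so its direction is not independent evidence. At 12 h 7 of 7 were called higher in VLC as measured, where 27.6% of all genes were, and 4 of 7 after centring, where 8.85% were. Their median difference as measured was 1.84, against 0.58 for all genes tested. The largest was g3637, glutamate:glyoxylate aminotransferase, which makes the glycine that GDC uses (2.99, 2.40 after centring), followed by g640, glycolate oxidase (2.76, 2.17 after centring), g10166, phosphoglycolate phosphatase (1.95 and 1.37), and g6487, an alanine-glyoxylate aminotransferase (1.84 and 1.25). The SHMT genes g1924 and g6217 (1.41 and 1.18) and g1836, glycerate kinase (1.17), were the nearest to the 3 annotated subunits (1.06 to 1.32). After centring they were at 0.83, 0.59 and 0.58, short of 2-fold. At 6 h 3 of 6 tested were called, g3637, g10166 and g640 (2.37, 2.00 and 1.99), where 1.84% of all genes were called higher. The counts were 3 of 7 at 24 h (11.2% of all genes) and 0 of 6 at 3 h (0.701%). At 3 h 1 was higher at an adjusted p of at most 0.05 at any size (7.39% of all genes). At 6 h the SHMT genes g1924 and g6217 were at 0.80 and 0.92, beside 0.99 for g176 and 0.61 for g1059.

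The THF cycle, which takes over the one-carbon unit, was covered by 5 genes from the study, again chosen on these samples. At 12 h 3 of 5 were called higher as measured (27.6% of all genes) and 2 after centring (8.85%). Called on both scales were g5846, formate-tetrahydrofolate ligase (4.03, 3.44 after centring), and g8540, tetrahydrofolate dehydrogenase/cyclohydrolase (2.83 and 2.25), while g5814, formaldehyde dehydrogenase, was called as measured only (1.28, 0.69 after centring). The 2 methylenetetrahydrofolate reductase genes g3586 and g6732, which lead the one-carbon unit to methionine synthesis, were at -0.30 (adjusted p = 0.0095) and -0.09 (adjusted p = 0.43) at 12 h. After centring both passed the test downwards without reaching 2-fold, at -0.89 (adjusted p = 1.6e-06) and -0.67 (adjusted p = 3.5e-05). At 24 h both were called lower (-1.37 and -1.01) and g5846 and g8540 called higher (2.87 and 1.21), 2 of 5 in each direction, where 11.2% of all genes were called higher and 5.95% lower. At 6 h 2 of 5 were called higher, again g5846 and g8540 (2.14 and 1.90, 1.84% of all genes). At 3 h 0 of 5 were called (0.701% of all genes higher), and 2 were higher at an adjusted p of at most 0.05 at any size (7.39% of all genes).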

How the data were processed

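Members and lists were chosen with earlier results of these data known. The submitters' processing notes name TopHat2 2.0.4 and Cufflinks 2.0.2. With them the authors mapped the mRNA reads to the strain's genome, kept reads with a single location, and made the deposited FPKM for 9756 genes. FPKM were taken as log2(FPKM + 1) and fitted with limma 3.58.1 (R 4.3.3, variance trend) over 9265 genes and 9 groups. Adjusted p (Benjamini-Hochberg) cover, per comparison, genes with a mean of at least 10 FPKM in either group. For centred values the median log2 difference was subtracted before the test. The fit was tested on simulated data in which most genes were unchanged. For VLC against HC at 12 h, 98 of 100 genes changed 2.5-fold and 1 of 7205 unchanged genes were called. The rate of such calls under a shift of the median gene, as measured at 12 h, was not tested. Low FPKM moved in uneven steps (60.5% of 732 values within 0.1 of a whole multiple, after scaling by the study's aligned reads), so counts were not recovered and depth per value is unknown. Python 3.11.15, scipy 1.17.1 and matplotlib 3.10.9 were used. Coordinates are those of the deposited tables, made 1-based. The genes named are the 4 members, every gene of both study lists, genes annotated as a glycine cleavage subunit, the 2 largest and 2 smallest differences at 12 h of each keyword list, the 5 most similar genes per member and the adjacent genes. The alternatives were a pseudocount of 0.1, other FPKM filters, other scalings, no variance trend, a replicate block, only the groups compared and leaving out each library.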

Additional observations from a re-analysis of the deposited data

Results flagged for a closer look

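Differences of the VLC against HC value between 2 times were tested with limma as interaction contrasts, 6 pairs of times for each of the 4 genes. Of the 24, 15 had an adjusted p of at most 0.05 as measured and 6 also after centring on the median gene in the same direction. These 6 follow, as values of VLC against HC at the later time minus the earlier time.

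The value of the H protein gene g260 fell by 1.23 ± 0.14 from 12 h to 24 h (adjusted p = 4.7e-06), and fell by 0.65 after centring (adjusted p = 0.0016), a direction found for 24.3% of all genes under the same rule. From 6 h to 24 h g260 fell by 0.42 ± 0.14 (adjusted p = 0.025, 0.50 after centring). Over the same times g176 fell by 0.49 ± 0.19 (adjusted p = 0.049, 0.57 after centring), 2 of the 4 genes where 19.7% of all genes fell.

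For g1059 the value rose from 3 h to 6 h by 0.51 ± 0.13 (adjusted p = 0.041, 0.53 after centring), as in 2.49% of all genes, and from 3 h to 12 h by 0.96 ± 0.13 (adjusted p = 1.5e-05, 0.34 after centring), as in 25.5% of all genes. For g9801 it rose from 3 h to 24 h by 0.57 ± 0.18 (adjusted p = 0.019, 0.49 after centring), as in 23.7% of all genes. The 3 differences that involve 3 h rest on HC at 3 h, the group whose replicates lay furthest apart.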

How the results depend on the processing

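Of 192 values of VLC against HC under an alternative, 182 kept their direction and their side of the threshold. With the median gene set to 0 the 12 h calls of g176, g260 and g1059 were lost (0.74, 0.57 and 0.47) and g176 was called at 6 h (1.04). With upper quartile scaling the same calls at 12 h were lost (0.92, 0.75 and 0.65), and g9801 at 24 h turned to -0.023. Leaving out each library in turn gave 0.77 to 1.21 for g176 at 6 h and 0.97 to 1.34 for g260 at 12 h. Without the 12 h libraries the ratio of g260 to g9801 was 0.32 higher in VLC on the log2 scale and no longer passed.

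Of 384 values against 0 h, 371 were unchanged in call and direction. Values that changed sign were small or at 12 h of HC: g260 at 6 h of VLC (0.044 without replicate 1 of VLC at 6 h, range over the libraries left out -0.15 to 0.044) and at 3 h of HC (-0.014 with the median gene set to 0 and -0.024 with upper quartile scaling), g1059 and g9801 at 12 h of HC (0.21 and 0.32 with the median gene set to 0), and g9801 at 3 h of VLC (0.040 without replicate 1 of VLC at 3 h, range -0.43 to 0.040), at 6 h of VLC (0.014 without replicate 2 at 0 h, range -0.067 to 0.014) and at 6 h of HC (-0.025 with the median gene set to 0). With the median gene set to 0, and without the 12 h groups, r of g9801 turned to -0.62 and -0.51 with g260 and to -0.16 and -0.21 with g1059.

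With the replicate number as a block, g176 at 12 h stayed at 1.32 (adjusted p = 4.9e-07) and no call of the 4 genes changed. Replicate differences had r of -0.18 to 0.13 between groups, and 1 of 36 pairs of groups was above 0.1. A small effect of a shared culture could go unseen in these values. Whether the replicate numbers pair the libraries is therefore not known. At 12 h 2692 genes were called as measured and 1706 after centring, and at 3 h 76 genes, or 158 without replicate 2 of HC at 3 h. With 2 libraries per group and no counts, differences within the replicate spread were not detectable.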

Other observations

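Gene families next to GDC were described from keyword lists on the annotation. Of 26 genes of lipoate metabolism and the 2-oxo acid dehydrogenase complexes, which share the lipoyl arm and dihydrolipoamide dehydrogenase with GDC, 25 were tested at 12 h. Of these, 13 were called higher in VLC as measured and 9 after centring on the median gene, where 27.6% and 8.85% of all genes were called higher, and the median was 1.05 against 0.58 for all genes. The largest were g5340, a pyruvate dehydrogenase kinase (2.57, 1.98 after centring), and g163 (2.21 and 1.62), and the smallest g5342, a pyruvate dehydrogenase (-0.39 and -0.97), and g6249, a biotin/lipoate protein ligase family member (-0.26 and -0.85). Lipoic acid synthetase g7151, which builds the cofactor of the H protein, was at 1.65 (1.07 after centring), a gene chosen after its values were seen. Gene g9451, a putative lipoic acid synthetase of the same list, was at 0.57 and at -0.02 after centring (limma adjusted p = 0.88). At 3, 6 and 24 h 1 of 24, 1 of 24 and 2 of 25 genes of the list were called higher as measured, where 0.701%, 1.84% and 11.2% of all genes were, and 0 lower. After centring 1 of 25 was called higher at 24 h.

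Of 10 genes of serine and glycine synthesis, which include both SHMT genes of photorespiration, 9 were tested at 12 h. As measured 2 were called higher, the SHMT genes g1924 and g6217 (1.41 and 1.18), and 0 lower, where 27.6% of all genes were called higher and 4.36% lower. After centring 0 were called higher (8.85% of all genes) and 1 lower (11.4%), g471. At any size 3 passed upwards and 5 downwards, where 33.9% and 35.0% of all genes did. The smallest values were those of g471, phosphoglycerate dehydrogenase/phosphoserine aminotransferase (-0.64, -1.23 after centring), and g3987, D-3-phosphoglycerate dehydrogenase (-0.14 and -0.73). At 24 h these genes, of the phosphorylated route from 3-phosphoglycerate to serine, were called lower (-1.55 and -1.56), 2 of 10 where 5.95% of all genes were called lower. Another SHMT gene, g1835, was at 0.24 at 12 h and -0.35 after centring.

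Of 19 genes of the folate and methyl cycle, which include 4 of the THF cycle genes, 18 were tested at 12 h, and 8 were called higher and 1 lower as measured, where 27.6% of all genes were called higher and 4.36% lower. After centring 3 were called higher and 1 lower (8.85% and 11.4% of all genes). At 24 h 4 of 18 were called higher and 4 lower as measured (11.2% and 5.95% of all genes), and 2 and 5 after centring (9.62% and 7.35%). The largest at 12 h were g5846 and g8540 (4.03 and 2.83, 3.44 and 2.25 after centring). The smallest were g5816, adenosylhomocysteinase (-1.16, -1.75 after centring, and -2.80 at 24 h), and g6145, a putative methylene tetrahydrofolate dehydrogenase (-0.38, -0.97 after centring).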
